A study of Mus musculus with 6 samples.

Results

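The genes examined were the catalytic subunits of the PPP family of serine/threonine phosphatases, chosen by symbol from the table of gene counts: Ppp2ca and Ppp2cb (PP2A), Ppp4c (PP4), Ppp6c (PP6), Ppp1ca, Ppp1cb and Ppp1cc (PP1), Ppp3ca and Ppp3cb (calcineurin, PP3) and Ppp5c (PP5). They are 10 of the 55453 genes in the table, and all 10 passed the filter on low counts that left 13680 genes for testing. RNA-Seq had been done on bone marrow-derived macrophages (BMDM), cells grown from marrow with M-CSF or L929-conditioned medium, with 3 libraries per genotype: LysMcre PP2Ac fl/fl (PP2Ac KO) and wild type (PP2Ac WT). In the floxed mice, loxP sites flank exon 1 of Ppp2ca, and Cre is expressed from the Lyz2 (LysM) promoter, which is active in myeloid cells. All mice were C57BL/6 of both sexes, 6 to 10 weeks old. The WT mice came from a commercial supplier and the floxed mice from another colony, so genotype and origin cannot be told apart. Both groups were taken as exposed for 4 h to 10 µg/mL cGAMP, a cyclic dinucleotide that activates STING, because the study describes its RNA-Seq in this way. The labels themselves give no treatment. The comparison asks whether another catalytic subunit of the family is higher when Ppp2ca is lost.

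PPP phosphatases share a catalytic core that holds a pair of metal ions and removes phosphate from serine and threonine. They act as parts of larger enzymes. The PP2A catalytic subunit, encoded by either Ppp2ca or Ppp2cb, binds a scaffold (A) subunit and 1 of many regulatory (B) subunits that direct it to substrates. PP4 and PP6 are its closest relatives. PP1 is directed by a large set of regulatory proteins, calcineurin is switched on by calcium and calmodulin, and PP5 carries its own regulatory repeats and binds HSP90. In macrophages PP2A is known to oppose kinases of inflammatory signaling.

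Ppp2ca lies on chromosome 11 and Ppp2cb on chromosome 8 of the mouse genome build GRCm38. The 102 coding bases of Ppp2ca in exon 1 are shown because they are the part of the coding sequence that the loxP sites flank. They lie at chr11:52099049-52099150 on the forward strand in the GENCODE M21 annotation, and run 5′ to 3′ with the start codon in capitals.
Ppp2ca: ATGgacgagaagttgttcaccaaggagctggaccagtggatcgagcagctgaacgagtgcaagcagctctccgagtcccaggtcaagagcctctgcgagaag
Over the whole coding sequences of Ppp2ca and Ppp2cb, each of 927 bases without the stop codon, 757 bases were identical (81.7%), the highest identity of any pair among the 10 genes. The PP1 genes were 75.3 to 79.0% identical to one another and Ppp3ca and Ppp3cb 73.9%. Ppp2ca was 64.7% identical to Ppp4c, 62.5% to Ppp3ca, 61.7% to Ppp6c and 61.6% to Ppp3cb, so this measure did not set Ppp6c apart from the calcineurin genes. No window of 50 bases in the exons of Ppp2cb occurred in another annotated gene, Ppp2ca included.

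The libraries held 35257156 to 47390899 counts. The 10 genes took 0.0797 to 0.0842% of all counts in the PP2Ac KO libraries and 0.113 to 0.115% in the PP2Ac WT libraries. Levels are given as CPM (counts scaled to a common library size) after TMM scaling, and a gene was called at an FDR under 0.05 in the quasi-likelihood test of edgeR, adjusted after Benjamini and Hochberg over all genes tested. By this rule 37.1% of all genes tested were called, 18.1% higher and 19.0% lower in PP2Ac KO. Scaling by total count in place of TMM moved the median over all genes from -0.02 to -0.24 on the log2 scale. All 8 macrophage markers examined passed the filter, with a summed level of 8623 to 8733 CPM in PP2Ac KO and 7279 to 7840 CPM in PP2Ac WT. Of these markers Fcgr1 and Mertk rose (18.1% of all genes), and 5 rose with the replicate number as a blocking term (24.4% of all genes). Lyz2, a defining gene of these cells, had only 6.58 to 10.1 CPM. Sequence shared or overlapping with other genes was not examined for the markers, Lyz2 included, so reads lost in counting could lower such a value. The 8 fibroblast markers summed to 25.4 to 37.7 CPM in PP2Ac KO and 81.2 to 126.9 CPM in PP2Ac WT, with 6 of the 7 tested lower. The 8 proliferation genes summed to 279 to 293 CPM and 343 to 413 CPM, with 7 lower. Markers of T and NK cells summed to at most 0.212 CPM, with Cd8a at 0 in every library, and those of neutrophils to at most 0.939 CPM, with Ly6g at 0. Markers of B cells summed to at most 2.11 CPM and those of dendritic cells to at most 2.88 CPM, with Clec9a and Siglech higher in PP2Ac KO. In bulk RNA, a smaller share of cells of 1 type and less RNA per cell cannot be told apart. The part of these differences in the results that follow was not tested.

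Ppp2ca, the floxed gene, had 47, 33 and 38 counts in the PP2Ac KO libraries and 10654, 8913 and 8279 counts in the PP2Ac WT libraries. As levels these were 0.911 to 1.11 CPM against 197 to 214 CPM. Every PP2Ac KO library was far below every PP2Ac WT library, and all were above the 3-count floor of 0.0604 to 0.0909 CPM. The level in PP2Ac KO was 0.491% of that in PP2Ac WT (95% CI 0.422 to 0.571%), with a log2 fold change of -7.67 ± 0.10 (SE, n = 3 per group). Among the 13680 genes tested it had the smallest p-value and the fourth largest change (adjusted p = 3.17e-10, edgeR). Counts cover the gene as a whole. Exon 1 makes up 6.62% of its 7102-base transcript, so the loss reached beyond the floxed exon. Which exons held the 33 to 47 remaining reads is not shown by a gene count. Of the 7440 windows of 50 bases in its exons, 116 (1.56%) also occur in other genes, most often in Mir3061 and Glrx2.

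Ppp2cb encodes the other PP2A catalytic subunit, a protein nearly identical to that of Ppp2ca. Its level was 43.6, 41.7 and 43.2 CPM in PP2Ac KO and 42.5, 42.3 and 41.4 CPM in PP2Ac WT. The libraries of the groups overlapped and lay within a narrow range. The mean was 42.8 ± 1.02 CPM (SD, n = 3) against 42.0 ± 0.568 CPM (SD, n = 3), which is 0.03 ± 0.05 (SE) on the log2 scale. The difference was 1.89%, with a 95% CI from -6.41 to 10.9%, and did not pass the test (adjusted p = 0.731, edgeR). A rise above 10.9% therefore lies outside the interval, while 92.9% of all genes tested had a larger change than Ppp2cb in either direction. Relative to the median of all genes the log2 change of Ppp2cb was 0.05 with TMM. RLE, upper-quartile and total-count scaling leave this value at 0.05 by construction, since each shifts nearly all genes alike. It is therefore no check of the scaling. The value not set against that median turned to -0.04 under upper-quartile and to -0.19 under total-count scaling. The latter passed the threshold (adjusted p = 0.0206, edgeR).

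**Figure D1:**
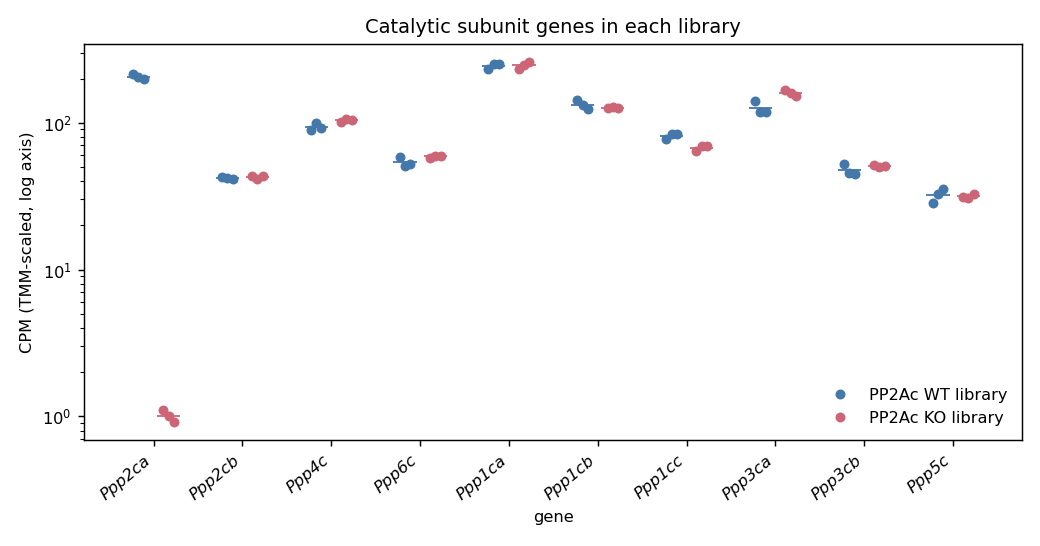
Level of each of the 10 catalytic subunit genes in every library (log axis, CPM after TMM scaling), with 1 point per library and the group mean as a short line, PP2Ac WT in blue and PP2Ac KO in red. Ppp2ca lies at 197 to 214 CPM in PP2Ac WT and at 0.911 to 1.11 CPM in PP2Ac KO, while Ppp2cb lies between 41.4 and 43.6 CPM in all 6 libraries.

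Ppp4c, the catalytic subunit of PP4, which acts in DNA repair and centrosome maturation, had 102, 107 and 104 CPM in PP2Ac KO and 89.5, 99.3 and 92.2 CPM in PP2Ac WT. All 3 PP2Ac KO libraries lay above the highest PP2Ac WT library. The difference was 11.4% (95% CI 1.05 to 22.9%), with a log2 fold change of 0.16 ± 0.06 (SE), and missed the threshold (adjusted p = 0.0792, edgeR). It passed once replicate numbers were blocked (0.16, adjusted p = 0.00787, edgeR), with RLE scaling (0.18, adjusted p = 0.0461, edgeR) and in DESeq2 (0.18, adjusted p = 0.0466). With total-count scaling the value was -0.06. Relative to the median of all genes it was 0.18, which by construction hardly depends on the scaling.

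Ppp6c, the catalytic subunit of PP6, which controls Aurora A kinase at the spindle, had 57.5, 59.7 and 59.7 CPM in PP2Ac KO and 58.5, 50.4 and 52.0 CPM in PP2Ac WT. The groups overlapped because PP2Ac WT replicate 1 was above PP2Ac KO replicate 1. The difference of 9.87% (95% CI -1.31 to 22.3%) did not pass (log2 fold change 0.14 ± 0.07 SE, adjusted p = 0.154, edgeR). Without PP2Ac WT replicate 1 the log2 fold change was 0.20 (adjusted p = 0.0208, edgeR). In that fit 2721 of all 13870 genes tested were called higher, against 2470 of 13680 with all libraries. Over the fits that left out 1 library the value for Ppp6c ran from 0.09 to 0.20.

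PP1 controls glycogen metabolism, mitosis and muscle contraction, and Ppp1ca encodes its alpha form. Ppp1ca had 232, 246 and 259 CPM in PP2Ac KO and 233, 252 and 250.0 CPM in PP2Ac WT, with the groups interleaved. The difference was 0.22% (95% CI -10.0 to 11.6%; adjusted p = 0.977, edgeR). Its gene overlaps Rad9a on the opposite strand, which had 794 to 1045 counts, and the strand setting of the counting is not given in the sources used here. Ppp1cb, the form that joins myosin phosphatase, had 126, 129 and 125 CPM in PP2Ac KO and 143, 131 and 124 CPM in PP2Ac WT. These ranges overlapped too, and the difference of -4.47% (95% CI -14.2 to 6.36%) did not pass (adjusted p = 0.487, edgeR).

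Ppp1cc, the gamma form of PP1, fell. It had 64.0, 69.7 and 69.0 CPM in PP2Ac KO and 77.3, 83.6 and 83.5 CPM in PP2Ac WT, so that every PP2Ac KO library was below every PP2Ac WT library. The change was -17.1% (95% CI -24.9 to -8.51%), with a log2 fold change of -0.27 ± 0.06 (SE, adjusted p = 0.00860, edgeR). The size is uncertain, since 40% of the 50-base windows in its exons also occur in other genes, 38.9% in the processed pseudogene Ppp1ccb. Ppp1ccb itself had 26, 19 and 26 counts in PP2Ac KO and 40, 27 and 33 in PP2Ac WT, against 2300 to 3842 counts for Ppp1cc. How the authors' counting treated reads shared by the 2 genes is not given in the sources used here. The proliferation genes given above were also lower in PP2Ac KO. Their part in the change of Ppp1cc was not tested.

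Ppp3ca encodes the alpha catalytic subunit of calcineurin, which dephosphorylates NFAT factors. It was the only catalytic gene called higher in the TMM-scaled fit without the replicate block. It had 168, 159 and 153 CPM in PP2Ac KO and 139.8, 117 and 119 CPM in PP2Ac WT, with no overlap between the groups. The rise was 27.7% (95% CI 12.4 to 45.1%), with a log2 fold change of 0.35 ± 0.08 (SE, adjusted p = 0.00829, edgeR). With total-count scaling it was 0.14 and did not pass (adjusted p = 0.122, edgeR). Relative to the median of all genes it was 0.38, which by construction hardly depends on the scaling. Of all genes tested, 36.0% had a larger change in either direction.

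Ppp3cb, the beta catalytic subunit of calcineurin, had 51.3, 50.3 and 50.7 CPM in PP2Ac KO and 52.7, 45.2 and 44.8 CPM in PP2Ac WT, so the groups overlapped through PP2Ac WT replicate 1. The difference was 6.69% (95% CI -4.71 to 19.5%; adjusted p = 0.345, edgeR). Without PP2Ac WT replicate 1 its log2 fold change was 0.17 rather than 0.09 (adjusted p = 0.0369, edgeR). Over the fits that left out 1 library it ran from 0.05 to 0.17. The difference between the changes of Ppp3ca and Ppp3cb was not tested. An antisense gene that overlaps Ppp3cb, 1810062O18Rik, had 37 to 66 counts.

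Ppp5c, the PP5 phosphatase that works with HSP90, had 31.0, 30.8 and 32.9 CPM in PP2Ac KO and 28.3, 32.6 and 35.4 CPM in PP2Ac WT. The PP2Ac KO libraries all lay inside the PP2Ac WT range. The difference was -1.59% (95% CI -13.8 to 12.4%; adjusted p = 0.853, edgeR).

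**Figure D2:**
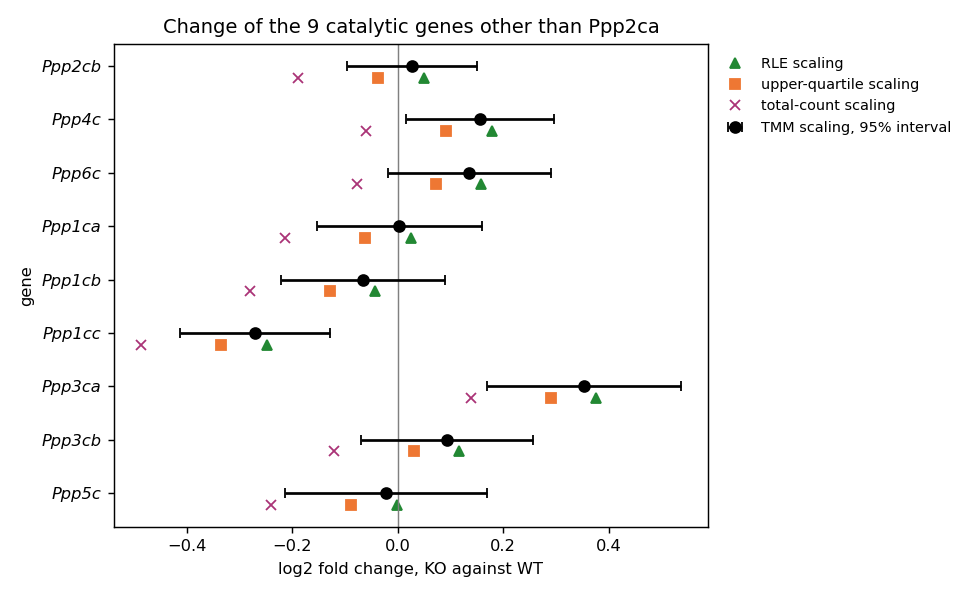
Log2 fold change of PP2Ac KO against PP2Ac WT for the 9 catalytic genes other than Ppp2ca. Black points with bars are the values under TMM scaling with 95% intervals from edgeR, and coloured marks are the values under RLE, upper-quartile and total-count scaling. The intervals of Ppp3ca (0.35), Ppp4c (0.16) and Ppp1cc (-0.27) exclude 0, and with total-count scaling all 9 values shift to the left, so that only Ppp3ca stays above 0 at 0.14.

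In all, 1 of the 10 genes rose, where 18.1% of all genes tested did. Ppp2ca, the gene deleted by design, and Ppp1cc fell, where 19.0% of all genes did, and the other 7 did not pass. With the replicate block Ppp4c rose too, where 24.4% of all genes did, and the same genes fell, where 26.4% did. Among the 9 genes other than Ppp2ca the log2 fold changes ran from -0.27 to 0.35, with a median of 0.03, beside a median of -0.02 over all genes tested. The median size of the change, with sign ignored, was 0.09 for the 9 genes and 0.23 for all genes. The libraries of the groups did not overlap for 3 of the 9 genes, Ppp4c, Ppp1cc and Ppp3ca, while 50.9% of all genes tested showed no overlap.

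To compare levels between genes, CPM were divided by the length of each gene's merged exons (RPKM). By this level Ppp1ca was highest in PP2Ac WT, with a mean of 97.3 RPKM. Ppp2cb at 28.6 and Ppp2ca at 27.5 RPKM followed, and their libraries overlapped. Next came Ppp1cc at 23.8 and Ppp4c at 21.9 RPKM, which overlapped, then Ppp3ca at 12.6, Ppp1cb at 12.1 and Ppp6c at 12.1 RPKM, where neighbours overlapped. Ppp5c at 10.2 and Ppp3cb at 5.40 RPKM were lowest, each apart from its neighbour. In PP2Ac KO, Ppp2ca went to the bottom of the order at 0.134 RPKM and Ppp1ca remained first at 97.5 RPKM, followed by Ppp2cb at 29.2, Ppp4c at 24.4 and Ppp1cc at 19.7 RPKM. No neighbours in the PP2Ac KO order overlapped. The order depends on the length used. Per base of the principal transcript alone, Ppp4c at 66.9 and Ppp3ca at 57.2 RPKM stood above Ppp1cc at 34.2, Ppp2ca at 29.0 and Ppp2cb at 28.6 RPKM in PP2Ac WT.

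Summed per library, Ppp2ca and Ppp2cb together gave 29.8, 28.5 and 29.5 RPKM in PP2Ac KO and 57.5, 56.1 and 54.5 RPKM in PP2Ac WT. The groups did not overlap, and the PP2A catalytic transcript level in PP2Ac KO was 52.2% of that in PP2Ac WT, a change of -47.8% (exact permutation test, two-sided, p = 0.1, the smallest that 3 against 3 allows). Ppp2ca supplied 48.3 to 49.8% of this sum in PP2Ac WT and 0.412 to 0.496% in PP2Ac KO. Without division by length the change was -82.3%, the transcript of Ppp2ca being 7102 bases long and that of Ppp2cb 1469.

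The other families differed less. Ppp4c and Ppp6c together had 37.6 ± 0.829 RPKM (SD, n = 3) in PP2Ac KO and 34.0 ± 0.659 RPKM in PP2Ac WT, a difference of 10.9% (exact permutation test, p = 0.1). This difference turned to -4.50% with total-count scaling (exact permutation test, p = 0.2). The PP1 genes had 129 ± 6.13 and 133 ± 4.35 RPKM, a difference of -3.30% that lay within the spread between libraries (exact permutation test, p = 0.4). The calcineurin genes had 21.8 ± 0.798 and 18.0 ± 1.75 RPKM, a difference of 21.4% with no overlap (exact permutation test, p = 0.1). With total-count scaling it was 4.64% (exact permutation test, p = 0.4).

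The change of the other genes was set against the loss of Ppp2ca. Ppp2ca differed by -27.3 RPKM between PP2Ac KO and PP2Ac WT and Ppp2cb by 0.54 RPKM, which is 1.97% of that loss. To make up for it in RPKM, Ppp2cb would have had to rise 1.95-fold. This fold rests on division by 7490 bases for Ppp2ca and 1469 for Ppp2cb. As CPM, without that division, the Ppp2ca mean was 206 in PP2Ac WT and 1.01 in PP2Ac KO. The Ppp2cb mean was 42.0 and 42.8 CPM, so on that scale the fold needed would be larger. The 9 genes other than Ppp2ca summed to 227.5 ± 5.99 RPKM (SD, n = 3) in PP2Ac KO and 224 ± 3.46 RPKM in PP2Ac WT, a difference of 3.51 RPKM or 1.57% that is 12.8% of the loss (exact permutation test, p = 0.4). It lay within the spread between libraries and ranged from 0.473 to 2.46% when 1 library was left out.

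This sum depends on the length and the scaling used. Per base of the principal transcripts the 9 genes had 436 ± 8.24 RPKM in PP2Ac KO and 416 ± 4.29 RPKM in PP2Ac WT, a difference of 4.66% (exact permutation test, p = 0.1). That is a net 19.4 RPKM against a Ppp2ca loss of 28.8 RPKM, or 67.4% of it. Ppp3ca gained 15.8, Ppp4c 7.65 and Ppp2cb 0.54 RPKM, while Ppp1cc, Ppp1cb and Ppp5c had lower means in PP2Ac KO. All 10 genes then differed by -2.11% (exact permutation test, p = 0.3), against -9.47% per base of merged exons (exact permutation test, p = 0.1). On merged exons the difference of the 9 genes was 3.11% with RLE, -2.84% with upper-quartile and -12.5% with total-count scaling, and as CPM it was 4.09%. The share of the loss matched by the other catalytic genes is therefore not settled by these counts. The Ppp2cb share was 1.97% by 1 length and 1.87% by the other. Both lengths of Ppp2cb are 1469 bases, so only the Ppp2ca loss could move between them. The Ppp2ca lengths, 7490 and 7102 bases, differ little, so these shares are no check of the division by length. With upper-quartile and total-count scaling the log2 change of Ppp2cb was -0.04 and -0.19, a loss in place of a gain.

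**Figure D3:**
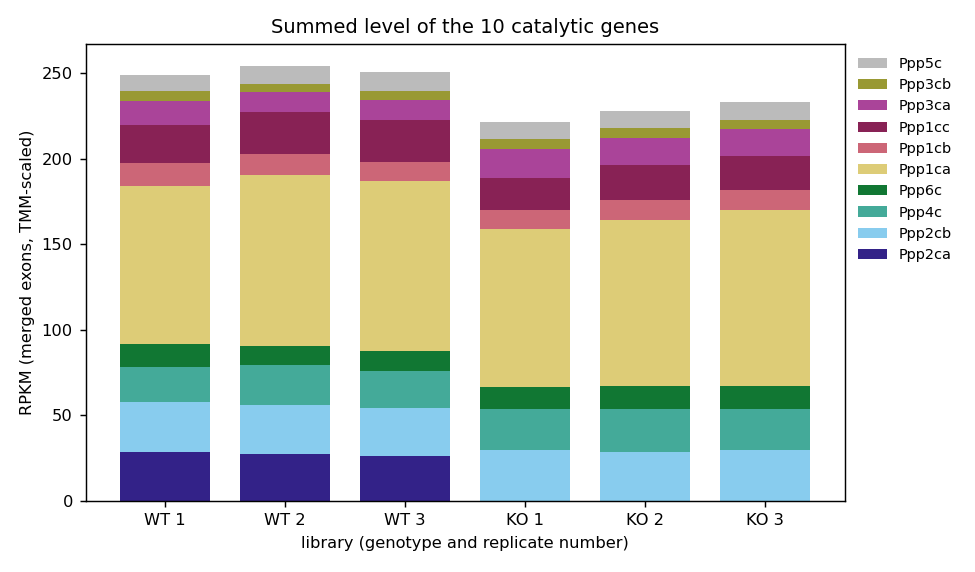
RPKM (per length of merged exons, TMM-scaled) of the 10 catalytic genes stacked for each library, PP2Ac WT on the left and PP2Ac KO on the right, with 1 bar per library and 1 colour per gene. The Ppp2ca segment at the base of the PP2Ac WT bars is too thin to see in PP2Ac KO, and the bars reach 249 to 254 RPKM in PP2Ac WT and 222 to 233 RPKM in PP2Ac KO.

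The catalytic subunits work with partner proteins, so lists of scaffold, regulatory and inhibitor genes were examined beside them. Over all partner lists 97 of 119 genes were tested, of which 27 (against 18.1% of all genes) rose and 14 (against 19.0%) fell. With the replicate block 36 rose and 23 fell, beside 24.4% and 26.4% of all genes. Without PP2Ac KO replicate 2 the number that fell was 8, where 1891 of all 14169 genes tested fell. Without PP2Ac WT replicate 2 it was 9, where 1873 of 14059 fell.

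Of the PP2A scaffold and B subunits, 15 of 17 genes were tested. Of these, 4 rose (18.1% of all genes), 3 fell (19.0%) and 8 did not pass, with a median log2 fold change of 0.08. Ppp2r1b, a scaffold gene, rose by 0.42 on the log2 scale (adjusted p = 0.00105, edgeR). Ppp2r1a, the other scaffold gene, rose from 214 ± 3.49 to 245 ± 7.63 CPM (log2 fold change 0.20, adjusted p = 0.0273, edgeR), but turned to -0.02 with total-count scaling and lost its call with upper-quartile scaling (0.14, adjusted p = 0.0944, edgeR), with no filter, and in 5 of the 6 fits that left out 1 library, all but the fit without PP2Ac WT replicate 1 (adjusted p up to 0.0910, edgeR). Ppp2r5a, which encodes a B56 subunit, had 238, 209 and 203 CPM in PP2Ac KO and 147, 133 and 131 CPM in PP2Ac WT, a log2 fold change of 0.66 ± 0.08 (SE, adjusted p = 3.53e-04, edgeR). Ppp2r2a, which encodes the B55 alpha subunit, rose by 0.65 (adjusted p = 4.90e-04, edgeR). The groups did not overlap for either gene. Ppp2r3a, a subunit of the B″ class that binds calcium, fell by 0.66 on the log2 scale, from 9.31 to 5.86 CPM (adjusted p = 0.00183, edgeR). Strn4, a striatin that joins PP2A to the STRIPAK kinases, fell by 0.19 (adjusted p = 0.0399, edgeR), and this call was lost with RLE scaling (-0.17, adjusted p = 0.0545, edgeR), in DESeq2, with no filter, and in 4 of the 6 fits that left out 1 library, those without replicate 1 or 2 of PP2Ac KO or 2 or 3 of PP2Ac WT (adjusted p up to 0.146, edgeR).

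Of the 12 genes for PP2A assembly, methylation and inhibition, 1 rose (18.1% of all genes), 1 fell (19.0%) and 10 did not pass. Their median log2 fold change was 0.06. With the replicate block 3 rose (24.4% of all genes) and 2 fell (26.4%). Igbp1, also known as alpha4, binds free catalytic subunits of PP2A, PP4 and PP6. It had 56.0, 59.2 and 58.3 CPM in PP2Ac KO and 44.2, 41.1 and 40.1 CPM in PP2Ac WT. The groups were well apart, with a log2 fold change of 0.47 ± 0.06 (SE, adjusted p = 4.61e-04, edgeR). Cip2a, an inhibitor of PP2A that is high in dividing cells, fell by 0.73 on the log2 scale, from 9.38 to 5.65 CPM (adjusted p = 5.41e-04, edgeR), beside the lower proliferation genes. The genes that activate or methylate the catalytic subunit did not pass, with log2 fold changes of -0.08 for the activator Ptpa (adjusted p = 0.312, edgeR), -0.04 for the methyltransferase Lcmt1 (adjusted p = 0.765, edgeR) and 0.09 for the methylesterase Ppme1 (adjusted p = 0.233, edgeR).

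Of the PP4 and PP6 subunits, 10 of 11 genes were tested. Of these, 4 rose (18.1% of all genes), 1 fell (19.0%) and 5 did not pass, with a median log2 fold change of 0.10. With the replicate block 5 rose (24.4% of all genes) and 2 fell (26.4%). Ppp6r1, a regulatory subunit of PP6, had 462, 423 and 428 CPM in PP2Ac KO and 279.7, 269 and 273 CPM in PP2Ac WT. It was the highest of its list in every library and rose by 0.68 ± 0.07 (SE) on the log2 scale, with no overlap (adjusted p = 1.31e-04, edgeR). Ppp4r2 rose by 0.33 (adjusted p = 0.0113, edgeR) and Ppp6r3 by 0.25 (adjusted p = 0.0310, edgeR). Ankrd28, a PP6 subunit with ankyrin repeats, fell by 0.26 (adjusted p = 0.0272, edgeR). Ppp6r3 lost its call when replicate 1 or 2 of PP2Ac KO or 2 or 3 of PP2Ac WT was left out (adjusted p up to 0.105, edgeR) and with upper-quartile and total-count scaling. Ankrd28 lost it without PP2Ac KO replicate 2 or 3 or PP2Ac WT replicate 3 (adjusted p up to 0.120, edgeR), with RLE scaling (-0.23, adjusted p = 0.0521, edgeR) and in DESeq2, and Ppp4r2 with total-count scaling.

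Of the PP1 regulatory subunits, 28 of 41 genes were tested. Of these, 11 rose (18.1% of all genes), 4 fell (19.0%) and 13 did not pass, with a median log2 fold change of 0.10. Ppp1r11, also known as inhibitor-3, rose from 31.9 ± 1.17 to 51.9 ± 0.828 CPM (log2 fold change 0.70, adjusted p = 6.41e-05, edgeR). Phactr1, which binds PP1 and actin, rose by 0.98 (adjusted p = 0.00125, edgeR), from 2.27 to 4.49 CPM. Ppp1r9a, the PP1 and actin-binding neurabin-1, rose by 0.67 (adjusted p = 0.0451, edgeR) but had only 0.874 to 2.19 CPM and lost the call without replicate 1 or 2 of PP2Ac KO or 2 or 3 of PP2Ac WT (adjusted p up to 0.182, edgeR), with upper-quartile and total-count scaling and in limma-voom. Ppp1r13l, also known as iASPP, fell by 0.99 on the log2 scale, from 4.43 to 2.21 CPM (adjusted p = 0.00279, edgeR).

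Of the calcineurin subunits, regulators and NFAT factors, 11 of 14 genes were tested. Of these, 0 rose (18.1% of all genes), 3 fell (19.0%) and 8 did not pass, with a median log2 fold change of -0.14. With the replicate block 2 rose (24.4% of all genes) and 6 fell (26.4%). Rcan3, a calcineurin regulator, had 23.9, 27.1 and 26.6 CPM in PP2Ac KO and 37.6, 37.9 and 35.6 CPM in PP2Ac WT. It was lower in every PP2Ac KO library, with a log2 fold change of -0.52 ± 0.07 (SE, adjusted p = 4.81e-04, edgeR). Nfatc2, an NFAT factor, fell by 0.45 on the log2 scale (adjusted p = 0.00459, edgeR). The third that fell was Nfatc4, which had at most 1.47 CPM and lay outside the naming rule. It is named here after its values were seen.

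Of the chaperones that bind PP5, Hsp90ab1 and Hsp90aa1 had log2 fold changes of 0.07 (adjusted p = 0.470, edgeR) and -0.12 (adjusted p = 0.175, edgeR). Cdc37 had 0.17 (adjusted p = 0.0746, edgeR). With the replicate block Cdc37 was called higher (adjusted p = 0.00456, edgeR), as it was with RLE scaling and in DESeq2, and Hsp90aa1 lower (adjusted p = 0.0382, edgeR). Of the PPP catalytic genes outside the 10, Ppp3cc, the gamma catalytic subunit of calcineurin, had 4.0 to 5.32 CPM in PP2Ac KO and 4.41 to 4.93 CPM in PP2Ac WT (log2 fold change -0.07, adjusted p = 0.708, edgeR). Ppef1 had 0 counts in every library, which allows a level of up to 0.0604 to 0.0909 CPM, and Ppef2 had at most 0.167 CPM.

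The PPM family are metal-dependent phosphatases that also act on serine and threonine but do not share the PPP fold. Of 18 genes 17 were tested, of which 7 rose (18.1% of all genes), 2 fell (19.0%) and 8 did not pass. Their median log2 fold change was 0.07. With the replicate block 8 rose (24.4% of all genes) and 5 fell (26.4%). Ppm1k, a mitochondrial phosphatase of branched-chain amino acid breakdown, had 257, 221 and 193 CPM in PP2Ac KO and 143, 97.2 and 79.5 CPM in PP2Ac WT. Replicates of both groups spread widely, but the groups did not overlap, and the log2 fold change was 1.07 ± 0.19 (SE, adjusted p = 0.00228, edgeR). Phlpp1, which dephosphorylates AKT, rose by 0.81 (adjusted p = 3.58e-04, edgeR), from 81.0 to 142 CPM. Ppm1e rose by 1.52 (adjusted p = 0.00339, edgeR) at 0.883 to 5.52 CPM. Ppm1l rose by 0.64 (adjusted p = 0.0390, edgeR), a call lost without PP2Ac KO replicate 1 (0.38), PP2Ac WT replicate 2 (0.65) or PP2Ac WT replicate 3 (0.48), with adjusted p up to 0.145 from edgeR, and with total-count scaling.

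**Figure D4:**
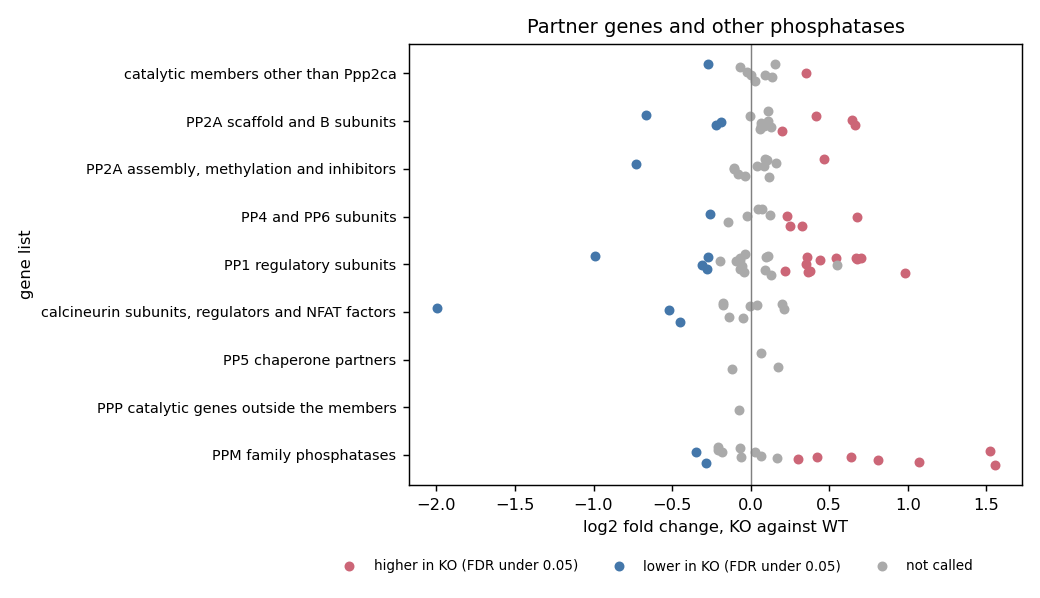
Log2 fold change of PP2Ac KO against PP2Ac WT for every tested gene of the partner lists and, in the top row, of the catalytic genes other than Ppp2ca, with 1 point per gene in a row for each list, coloured by call (FDR under 0.05, edgeR with TMM scaling). Genes that rose and genes that fell stand in the same row in 5 of the 8 partner lists, and the values run from -2.00 (Nfatc4) to 1.55 (Ppm1n, below 1 CPM).

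The 10 tested genes nearest to Ppp2ca on chromosome 11, 5 on each side, were examined because the floxed allele lies between them. Of these, 2 rose (18.1% of all genes), 2 fell (19.0%) and 6 did not pass. Cdkl3, a kinase gene that ends 8.90 kb before Ppp2ca, had 1.61 to 1.89 CPM in PP2Ac KO and 1.15 to 2.00 CPM in PP2Ac WT, with overlapping groups (log2 fold change 0.16, adjusted p = 0.602, edgeR). Skp1a, a subunit of SCF ubiquitin ligases, differed by 0.04 (adjusted p = 0.595, edgeR), Ube2b by -0.03 (adjusted p = 0.772, edgeR) and Sar1b by 0.05 (adjusted p = 0.563, edgeR).

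Called neighbours lay on both sides. Cdkn2aipnl, 121 kb before Ppp2ca, fell from 15.9 ± 2.30 to 10.4 ± 1.48 CPM (log2 fold change -0.61, adjusted p = 0.00573, edgeR). Gene 9530068E07Rik, 269 kb after it, rose from 172 ± 8.48 to 227 ± 4.85 CPM (log2 fold change 0.40, adjusted p = 0.00132, edgeR). The remaining calls rest on few reads. Tcf7, a transcription factor gene of T cells, had 4, 3 and 3 counts in PP2Ac KO and 20, 11 and 11 in PP2Ac WT (log2 fold change -1.82, adjusted p = 0.00775, edgeR). Pseudogene Olfr1372-ps1 had 28, 18 and 13 counts in PP2Ac KO and 6, 13 and 4 in PP2Ac WT (1.55, adjusted p = 0.0272, edgeR), and lost its call without replicate 1 or 2 of PP2Ac KO or 1 or 3 of PP2Ac WT (at least 1.28, adjusted p up to 0.113, edgeR). Jade2 at -0.12 (adjusted p = 0.109, edgeR) and Vdac1 at -0.16 (adjusted p = 0.147, edgeR) missed the threshold and passed it with the replicate block (adjusted p = 0.0375 and 0.00688, edgeR).

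**Figure D5:**
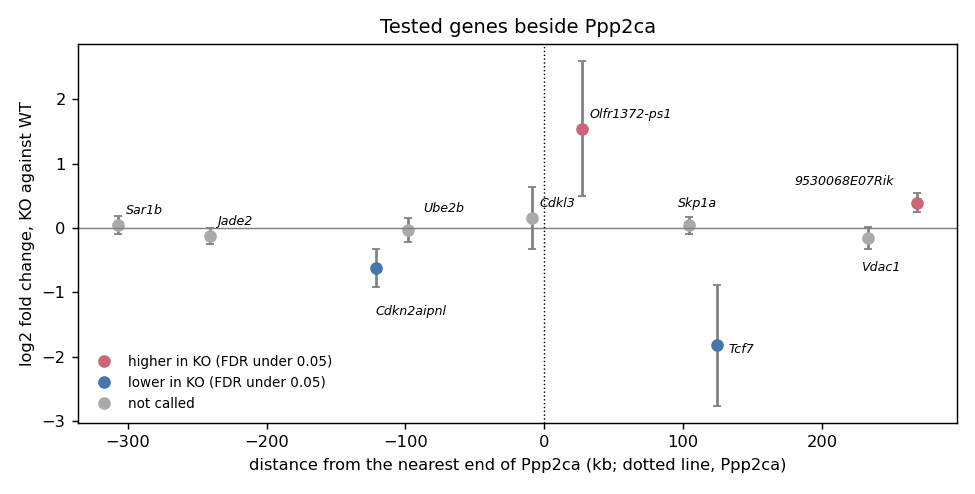
Log2 fold change of PP2Ac KO against PP2Ac WT, with 95% confidence intervals from edgeR, for the 10 tested genes around Ppp2ca, plotted by distance in kb from its nearest end. Called genes lie on both sides, and the wide intervals of Olfr1372-ps1 and Tcf7 come with counts of 28 or fewer per library.

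By the root-mean-square distance between profiles over the 6 libraries, of log2(CPM + 0.5) relative to the PP2Ac WT mean, the genes most like Ppp2ca were Gm15446, Adam19 and Col1a1. Gm15446, a predicted gene, had 3, 4 and 4 counts in PP2Ac KO and 224, 235 and 225 in PP2Ac WT, and lay at a distance of 2.74 log2 units. Adam19, which encodes a membrane metalloprotease, had 2.30 to 3.77 CPM against 15.3 to 17.2 CPM and lay at 3.43. Col1a1, a collagen gene and fibroblast marker, had 6.66 to 8.53 CPM against 26.7 to 34.7 CPM and lay at 3.58. Their log2 fold changes of -5.71, -2.40 and -2.10 were smaller in size than that of Ppp2ca.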

How the data were processed

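The authors deposited 1 table of whole-number read counts per gene for 6 libraries, without normalization. Per the labels, RNA was poly(A)-selected and sequenced as paired 150-base reads. The submitters' processing notes name fastp 0.20.0, STAR 2.7.1a, HTSeq 0.11.2, kallisto 0.46.1, edgeR 3.34.0 and limma 3.48.3, with builds mm10 and GRCm38 and no role for each. The annotation release and the strand setting of the counting are not given in the sources used here. Genes with shared sequence or overlapping exons can therefore gain or lose reads in ways the table does not show.

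Groups and replicate numbers came from the labels. The analysis used edgeR 4.0.16 in R 4.3.3: filterByExpr (minimum count 10, minimum total 15), TMM scaling, glmQLFit and glmQLFTest for genotype, and Benjamini-Hochberg adjustment over 13680 genes, with calls at FDR under 0.05. Tests were two-sided, and errors of CPM are SDs of 3 libraries. The biological coefficient of variation was 8.77%. Floors of 3 counts cover counting error only. The study describes its cell experiments as biological triplicates and does not say whether the 3 libraries of a group came from separate mice, so p-values measure the spread between these libraries. No libraries of a group agreed within sampling noise (chi-square per degree of freedom 9.28 to 45.5). RPKM used merged exons of GENCODE M21 (98.3% of symbols matched), and sums were compared by an exact permutation test. Overlap with other genes was counted in windows of 50 bases.

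The replicate numbers 1, 2 and 3, shared by both genotypes in the labels, were checked for pairing. Deviations from group means correlated at 0.446, 0.275 and 0.459 for the same number and at -0.370 to -0.0990 for different numbers. Deviations cancel out within a group, so the negative values follow in large part from the positive ones. On the same-number values the block fit was treated as paired. What the numbers share is not given in the sources used here.

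The members and gene lists were chosen with earlier results of these data known. Named genes were the 10 members, up to 4 called genes per partner list with the largest change and a mean of at least 1 CPM, Strn4, Igbp1, Ptpa, Lcmt1, Ppme1 and Ppp3cc, the 5 tested genes on each side of Ppp2ca, and the 3 genes with the profile most like it. Nfatc4, Ppp2r1a, the PP5 chaperones, Ppm1n, Ppef1, Ppef2, the overlapping genes and the markers named were added after their values were seen. Other settings tried were no filter or a minimum of 10 counts per library, scaling by RLE or upper quartile, the replicate block, DESeq2 1.42.0, limma-voom 3.58.1, CPM in place of RPKM, and each library left out. Total-count scaling and the length of the principal transcript were chosen after seeing the data. The scripts were tested on simulated data.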

Additional observations from a re-analysis of the deposited data

How the results depend on the processing

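The log2 fold change of Ppp2ca and the summed level of Ppp2ca and Ppp2cb kept their direction under every alternative run. Ppp2ca is the gene deleted by design, so neither direction is a check of the processing. The fall of Ppp1cc kept its call. The number of catalytic genes called higher was 1, and 2 with RLE scaling, the replicate block or DESeq2 (Ppp4c added), 0 with total-count scaling, and 1 to 3 with each library left out in turn. Of all 13680 genes tested, 2653 were higher with RLE scaling, 3343 with the block, 2597 in DESeq2 and 1503 with total-count scaling. With a library left out 1974 to 2721 were higher, of 13870 to 14169 tested. The number called lower was 2, and 5 with total-count scaling (Ppp2cb, Ppp1ca and Ppp1cb added), where 6125 of all 13680 genes were lower. With upper-quartile scaling the median log2 fold change of the 9 genes other than Ppp2ca became -0.037, Ppp2cb -0.037, Ppp1ca -0.061, Sar1b -0.013 and Skp1a -0.020, and the sum of the 9 genes -2.84%. With total-count scaling the median became -0.19, the sum of the 9 genes -12.5%, the sum of Ppp4c and Ppp6c -4.50%, Ppp2cb -0.19, Ppp1ca -0.21, Ppp3cb -0.12, Ppp4c -0.060, Ppp6c -0.078, Ppme1 -0.13, Cdkl3 -0.059, Ppp2r1a -0.015, Cdc37 -0.042, Hsp90ab1 -0.15, Sar1b -0.16 and Skp1a -0.17. Total-count scaling lowers every gene alike relative to TMM, and moved the share of calls that were higher from 48.7% to 19.7%. With upper-quartile scaling this share was 38.4%. Ppp1ca, at 0.0032, became -0.0048 without a filter and -0.00061 with at least 10 counts in every library.

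With each library left out, Ppp1ca ran from -0.035 to 0.035, Ppp5c from -0.11 to 0.054, Lcmt1 from -0.070 to 0.026, Cdkl3 from -0.025 to 0.35, Ube2b from -0.12 to 0.017 and Ppp3cc from -0.21 to 0.0033. Partner genes that rose numbered 27, and 14 with total-count scaling and 20 to 29 with a library left out. Those that fell numbered 14, and 23 with the replicate block, 41 with total-count scaling and 8 to 16 with a library left out. With total-count scaling 1503 of all 13680 genes tested were called higher and 6125 lower. With a library left out 1974 to 2721 were higher and 1873 to 2720 lower, of 13870 to 14169 tested. Neighbours of Ppp2ca called numbered 4, and 2 with at least 10 counts in every library, where fewer genes were tested, 8 with total-count scaling and 3 to 4 with a library left out. With at least 10 counts in every library 2369 of all 12644 genes tested were called higher and 2473 lower. Beyond Ppp4c, Jade2, Vdac1 and the list counts given above, the replicate block changed no call of a named gene of the rule. The causes of these changes were not tested where no construction is given. Library totals of 35257156 to 47390899 counts put the floor at 0.0604 to 0.0909 CPM.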
